A study of Mus musculus with 8 samples.

Results

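Mouse mammary cells that had been given dexamethasone and estradiol together for 2 hours were compared with untreated cells of the same line over every probe set and gene of the array. The comparison used 4 of the 8 arrays of the series, 2 titled for both hormones and 2 for untreated cells, and covered all 45101 probe sets and all 18194 genes. The cells were of the 7438 line, which carries a glucocorticoid receptor fused to green fluorescent protein (GFP-GR) and an estrogen receptor fused to cherry fluorescent protein (Cherry-ER), each under a tetracycline-regulated promoter. In all groups the cells had been plated for 48 hours in medium with 10% charcoal-dextran serum, which is depleted of steroids, and tetracycline had been withdrawn for 24 hours to switch on both fusion proteins, in the untreated cells as well. The treated cells then received 100 nM of the synthetic glucocorticoid dexamethasone (Dex) together with 100 nM estradiol (E2). The other arrays, 2 with 100 nM Dex alone and 2 with 100 nM E2 alone for 2 hours, served here to estimate the spread and to set the joint treatment beside its parts. All arrays came from this 1 line. The labels do not say whether replicate arrays hold RNA of separate cultures, so every p-value here speaks only of the spread among these samples, which could be technical. The title and treatment label of Dex+E2 replicate 1 place it in this group, while its free-text description names a GR-ChIP experiment, as does that of E2 replicate 2.

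The glucocorticoid receptor and the estrogen receptor are transcription factors that are activated by binding their hormone. Each binds DNA at its own palindromic response element, and each can also act through other DNA-bound factors such as AP-1 and NF-kappaB. In mammary cells glucocorticoids are known for induction of metabolic and circadian genes and for repression of inflammatory and growth factor genes, and estrogens for support of proliferation.

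The deposited values are log2 signals, and a level is quoted below for 1 probe set at a time, since signals of different probe sets are not comparable. Each gene is given by its brightest probe set (highest mean signal). Differences are in log2 units with the standard error from limma after ±, and a gene was called when its Benjamini-Hochberg adjusted p from limma, over all 18194 genes, was under 0.05. The replicate arrays differed most in the group given both hormones: 390 genes (2.14%) lay more than 0.5 log2 units apart between its 2 arrays, against 19 to 95 in the other groups. In the plot of replicate differences the spread around 0 is widest for that group. Judged by the average of its correlations with the remaining arrays, Dex+E2 replicate 2 was the least typical array of the series (0.99593). Dex+E2 replicate 1 was the most typical (0.99765). The summed signal of the immune cell markers, taken on the linear scale, was 722.5 and 654.8 in the untreated arrays and 678.4 and 736.9 in the Dex+E2 arrays. With both hormones 0 of 15 of these genes were called, against 1.46% of all genes, a share at which so short a list could hold 0. Of these markers 0 lay at or above the median level of all genes. The sum may therefore be largely background, and it cannot show whether immune cells were present.

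**Figure D1:**
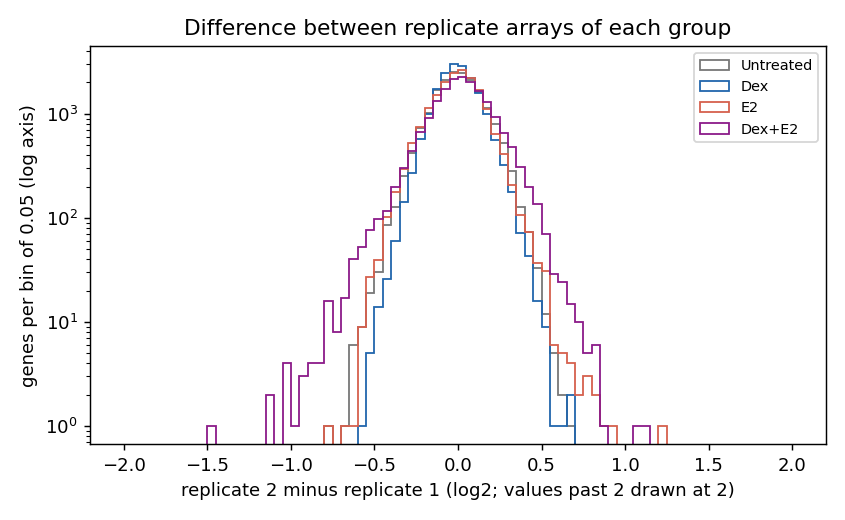
Number of genes (log axis) by the log2 difference between replicate 2 and replicate 1 in each of the 4 groups, in bins of 0.05 log2 units. The Dex+E2 outline is the widest, with 390 genes beyond 0.5 log2 units against 56 in untreated, 19 in Dex and 95 in E2.

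Markers of cell types were read one by one, since signals of different probe sets do not rank genes. Vim, the intermediate filament of mesenchymal cells, read 13.95 and 13.98 in untreated cells. Cdh1, the epithelial adhesion protein E-cadherin, read 3.27 and 3.22, and Elf5, a regulator of the luminal lineage, read 4.90 and 5.10. These single genes do not stand for their lists. Untreated means ran from 3.34 to 13.97 for mesenchymal, 3.24 to 10.68 for epithelial and 4.03 to 10.9 for milk and luminal markers. In these ranges Vim lay at the top for mesenchymal and Cdh1 at the bottom for epithelial markers. At or above the median level of all genes were 13 of 18 mesenchymal, 5 of 20 epithelial and 5 of 16 milk and luminal markers. The values come with no detection call, so whether a dim marker is expressed was not tested. In whole cultures fewer cells of a type and less RNA per cell cannot be told apart.

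With both hormones, 265 of 18194 genes changed (1.46%), 146 of them higher (0.802%) and 119 lower (0.654%). Among them 55 rose and 29 fell at least 2-fold. Before adjustment, 859 genes were higher and 679 lower at p under 0.05. The median difference over all genes was 0.008 log2 units, with the 5th percentile at -0.21 and the 95th at 0.23. Genes that rose did so by a median of 0.85 log2 units (quartiles 0.589 and 1.22), and those that fell by a median of 0.699 (quartiles 0.52 and 0.992). The untreated and the Dex+E2 arrays did not overlap for any of the 265, but 5935 genes (32.6%) met that condition. The number called depended on single arrays. A fit without Dex+E2 replicate 1 keeps only replicate 2, the least typical array of the series, in that group. Dropping untreated replicate 1 or 2 left 128 or 114, and dropping Dex+E2 replicate 1 gave 608, of which 231 were among the 265. The 119 lower genes became 57 and 42 without untreated replicates 1 and 2, 77 without either Dex array, 69 without Dex+E2 replicate 2 and 329 without Dex+E2 replicate 1, while the 146 higher genes became 71, 72, 113, 132 and 279 in the same order.

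**Figure D2:**
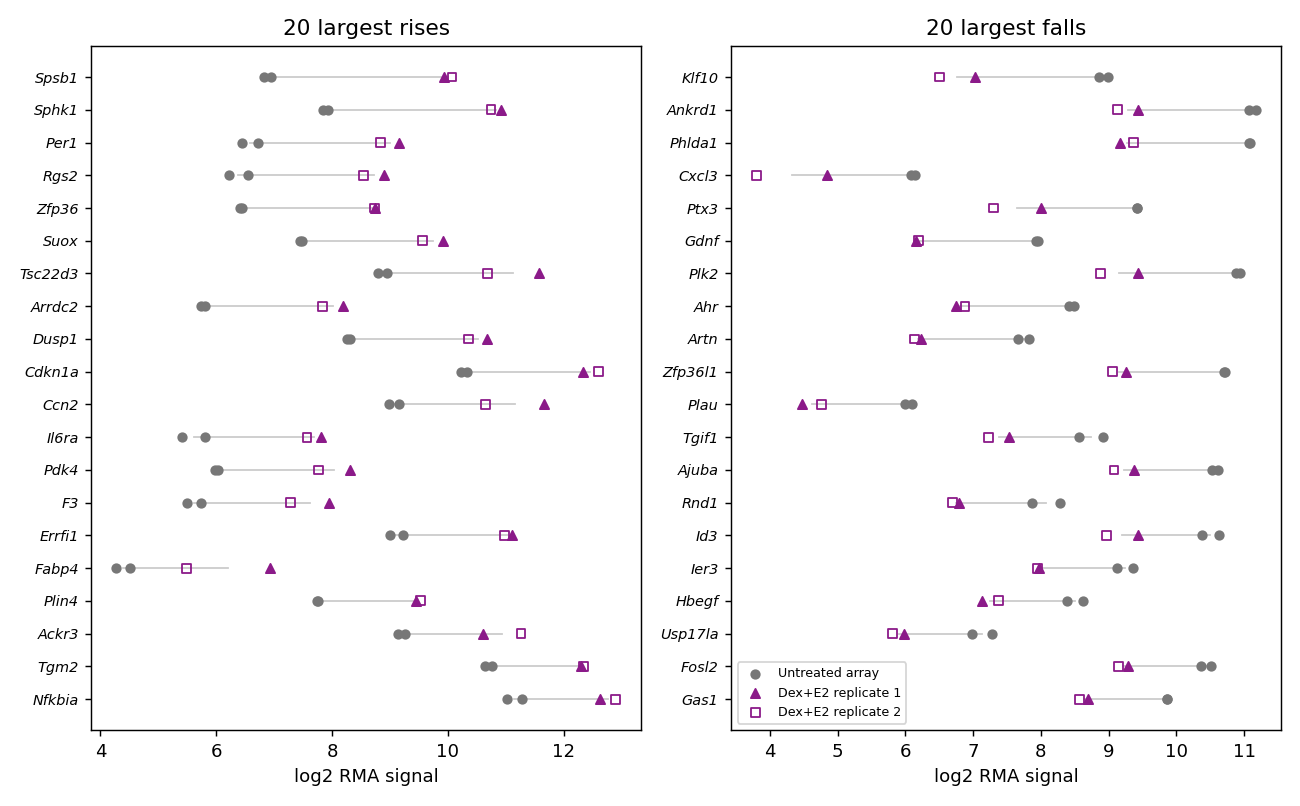
Log2 signal of the 20 genes with the largest rise (left) and the 20 with the largest fall (right) on each untreated array (grey circles) and each Dex+E2 array (purple triangle for replicate 1, open square for replicate 2), with a line joining the group means. For Spsb1 the untreated arrays read 6.82 and 6.95 and the Dex+E2 arrays 9.94 and 10.07; the open and filled purple marks lie far apart for Tsc22d3, Ccn2, Fabp4 and Cxcl3.

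By the brightest probe set of each gene, the largest rise was in Spsb1, a substrate adaptor of ubiquitin ligases that limits TGF-beta receptor levels. It read 6.82 and 6.95 on the untreated arrays and 9.94 and 10.07 with both hormones, a rise of 3.12 ± 0.10 or 8.68-fold (limma, Benjamini-Hochberg adjusted p = 4.53e-07). The groups were separated by far more than the replicates differed, and 3 of its 4 probe sets passed. The other probe sets rose by less, 1.29 and 1.10, or differed by 0.27 without passing, and with averaged probe sets the rise of Spsb1 was 1.44, below that of Per1. Sphk1, which makes sphingosine 1-phosphate, went from 7.84 and 7.94 to 10.92 and 10.74, up by 2.94 ± 0.13 (7.67-fold). Per1, a repressor of the circadian clock, went from 6.72 and 6.45 to 9.16 and 8.84, up by 2.41 ± 0.13 (5.33-fold). The arrays of the 2 groups did not overlap for either gene, which held for all 265 called genes.

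Next in size came Rgs2, a regulator of G-protein signalling, at 6.22 and 6.54 in untreated cells against 8.89 and 8.54 (2.33 ± 0.22). Zfp36, which destabilises cytokine mRNAs, read 6.44 and 6.40 against 8.74 and 8.73 (2.32 ± 0.16). Suox, mitochondrial sulfite oxidase, read 7.45 and 7.48 against 9.92 and 9.56 (2.27 ± 0.14). In these 3 genes, as in every called gene, the arrays of the 2 groups did not overlap. Tsc22d3, the glucocorticoid-induced leucine zipper, rose by 2.26 ± 0.23, but its treated arrays were 11.57 and 10.69, so replicate 2 carried a smaller rise over the untreated 8.79 and 8.95. Ccn2, a matricellular growth factor, showed the same order, 11.66 and 10.64 against 8.97 and 9.15 (2.09 ± 0.27), and lost its call without untreated replicate 1 (limma, Benjamini-Hochberg adjusted p = 0.0563). Fabp4, a fatty acid carrier, was at 6.93 and 5.48 against 4.28 and 4.51. Its rise of 1.81 ± 0.34 passed (adjusted p = 0.0258) but did not pass without either untreated array (0.240 and 0.181) or without either Dex array (0.0645).

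The deepest fall was that of the TGF-beta-inducible repressor gene Klf10, from 8.86 and 8.996 to 7.03 and 6.51, by -2.16 ± 0.15 or 4.47-fold (limma, Benjamini-Hochberg adjusted p = 6.66e-05). Ankrd1, a nuclear cofactor of stretch and growth responses, went from 11.07 and 11.17 to 9.43 and 9.13 (-1.84 ± 0.15). Phlda1, a pleckstrin homology protein linked to survival and death signals, went from 11.08 and 11.08 to 9.17 and 9.36 (-1.82 ± 0.096). Their treated arrays lay below their untreated arrays, and no called gene had overlapping arrays. Cxcl3, a neutrophil chemokine, read 6.14 and 6.08 against 4.84 and 3.80 (-1.79 ± 0.25); its treated replicates stood more than 1 log2 unit apart, and the call was lost without either untreated array (adjusted p = 0.0694 and 0.0658). Ahr, the receptor for dioxin-like ligands, fell from 8.49 and 8.41 to 6.75 and 6.88 (-1.63 ± 0.10).

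The glucocorticoid target list carried the most called genes. It had 33 measured members, of which 23 rose, 1 fell and 9 did not pass. The share called was 72.7%, against 1.46% of all genes, and the median 1.05 against 0.008. The lists were chosen with earlier results of these data known, so a share above that of all genes is a description here and in the lists that follow. Its 4 largest rises were in Per1, Rgs2, Zfp36 and Tsc22d3. For these, Dex alone differed from untreated by 2.66, 3.21, 2.06 and 2.82, and E2 alone by 1.97, 0.21, 1.00 and 0.97. The single-hormone differences were not tested. Beside these 4 genes, the phosphatase gene Dusp1, which switches off MAP kinases, rose from 8.26 and 8.30 to 10.67 and 10.35 (2.23 ± 0.14). Cdkn1a, the cell cycle inhibitor p21, rose from 10.23 and 10.32 to 12.32 and 12.60 (2.18 ± 0.14). Il6ra, the interleukin 6 receptor, rose by 2.08 ± 0.15 and Pdk4, which holds back pyruvate oxidation, by 2.03 ± 0.15. Fkbp5, an Hsp90 co-chaperone that dampens receptor signalling, went from 10.18 and 10.16 to 11.62 and 11.32 (1.30 ± 0.11), and Sgk1, a serum- and glucocorticoid-regulated kinase, from 11.52 and 11.59 to 12.88 and 12.43 (1.10 ± 0.14). Lcn2, the siderophore binder lipocalin 2, rose by 1.11 ± 0.17 and lost its call without either untreated array (adjusted p = 0.0501 and 0.120). The member that fell was Angptl4, a lipoprotein lipase inhibitor, by -0.99 ± 0.19, named after its value was seen. Members that did not pass included the tyrosine aminotransferase gene Tat at -0.08 ± 0.08, Zbtb16, a zinc finger repressor, at -0.04 ± 0.10, and Ddit4, an mTOR inhibitor, at 0.80 ± 0.20 with treated arrays at 11.77 and 11.15. The number that rose was 17 to 23 over the settings tried, and Angptl4 lost its call without either untreated array, either Dex array or Dex+E2 replicate 2.

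**Figure D3:**
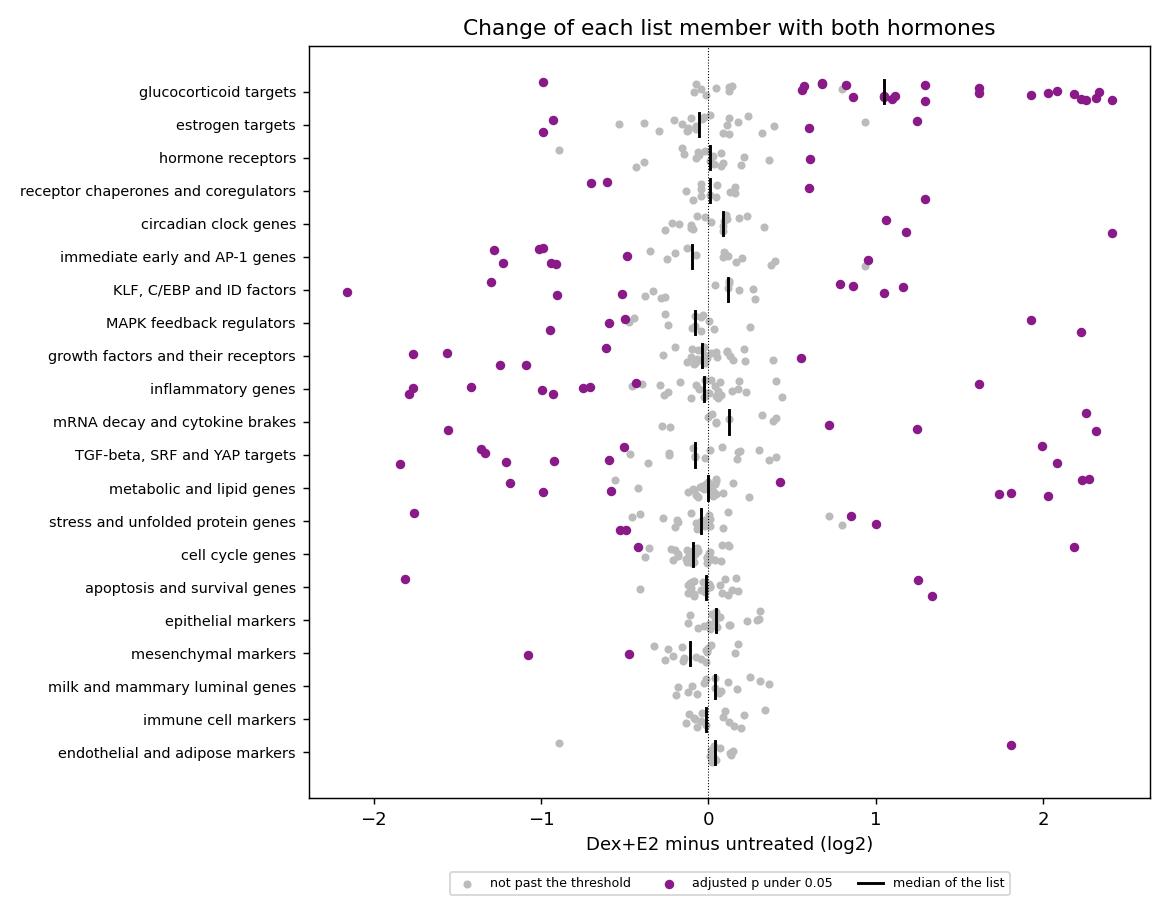
Log2 difference between Dex+E2 and untreated for each measured member of the 21 gene lists (purple, adjusted p under 0.05 in limma; grey, not past it), with the median of each list as a black bar. The glucocorticoid targets have a median of 1.05, and the other lists have medians between -0.11 and 0.123.

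Promoter windows from RefSeq (mouse build GRCm38.p6), 300 bases from 250 before to 50 after the annotated start, were at hand for 14453 of the genes, 113 of them among the higher and 85 among the lower. Each was searched on both strands for 5 motifs. The glucocorticoid response element, written as GNACA and TGTNC with 3 letters between, was found in 61 of the 14453 genes (0.422%), in 4 of the 113 higher (3.54%: Suox, Sgk1, Mt1 and Trim63) and in 0 of the 85 lower genes. The estrogen response element, GGTCA and TGACC with 3 letters between, was in 5 genes (0.0346%) and in 0 of the called genes. The AP-1 motif TGANTCA was in 7.54% of all, 8.85% of the higher and 5.88% of the lower genes. The cyclic AMP response element, TGACGTCA, was in 2.92%, 5.31% and 3.53%, and the CArG box of SRF, CC and GG with 6 letters A or T between, in 1.58%, 3.54% and 2.35%. These shares are descriptions of these windows and were not tested; some genes have several windows, 18110 in all. Mt1, metallothionein 1, rose from 9.98 and 10.23 to 11.41 and 10.91 (1.05 ± 0.15), and is named with Trim63 after its value was seen.

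The windows of the named genes with a glucocorticoid response element match are shown because these genes rose with both hormones and hold the palindrome in this window; the capitals mark the match, and the letters run 5′ to 3′ on the strand of the gene. The Suox window is chr10:128673869-128674168 on the minus strand, with the match at bases 205 to 217, from -46 relative to the start. The Sgk1 window is chr10:21993640-21993939 on the plus strand, with the match at bases 63 to 75, from -188.
Suox: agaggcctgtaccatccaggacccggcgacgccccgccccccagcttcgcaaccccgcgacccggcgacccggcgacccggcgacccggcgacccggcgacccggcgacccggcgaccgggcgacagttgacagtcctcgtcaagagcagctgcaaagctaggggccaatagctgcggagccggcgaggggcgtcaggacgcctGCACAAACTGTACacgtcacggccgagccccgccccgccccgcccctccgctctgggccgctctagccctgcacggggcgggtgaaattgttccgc
Sgk1: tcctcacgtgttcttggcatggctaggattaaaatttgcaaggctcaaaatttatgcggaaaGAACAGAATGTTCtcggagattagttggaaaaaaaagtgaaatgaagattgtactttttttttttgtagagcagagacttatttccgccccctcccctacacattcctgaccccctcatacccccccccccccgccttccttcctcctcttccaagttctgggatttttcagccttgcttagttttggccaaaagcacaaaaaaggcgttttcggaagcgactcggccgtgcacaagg

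Of 28 measured estrogen targets 2 rose, 2 fell and 24 did not pass; the share called was 14.3%, against 1.46% of all genes, and the median was -0.06. Nrip1, a corepressor of nuclear receptors, rose by 0.60 ± 0.098 and Zfp36l2, which promotes mRNA decay, by 1.24 ± 0.12. Myc, a growth-promoting transcription factor, fell from 9.80 and 9.99 to 9.22 and 8.60 (-0.99 ± 0.20) and Cited2, a transcriptional coregulator, from 11.99 and 12.07 to 11.35 and 10.85 (-0.93 ± 0.17). Dex alone and E2 alone differed from untreated by 1.37 and 0.61 for Zfp36l2 and by 0.48 and 0.44 for Nrip1. For Myc these differences were -0.59 and -0.30, and for Cited2 -0.49 and -0.68. They were not tested. Myc and Cited2 both lost their calls without any 1 array of the untreated or Dex groups or without Dex+E2 replicate 2, and Nrip1 lost it without either untreated array, without Dex+E2 replicate 2 and with averaged probe sets (0.34, adjusted p = 0.102). Ccnd1, cyclin D1, read 12.97 and 12.97 against 12.96 and 12.73, a difference of -0.13 ± 0.09 that did not pass, and Pgr, the progesterone receptor, differed by 0.09 ± 0.11.

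Greb1, a growth gene with several estrogen receptor binding sites, gave different answers by probe set. Its brightest probe set, 1445324_s_at, read 5.76 and 5.91 in untreated cells and 5.95 and 5.96 with both hormones, a difference of 0.12 ± 0.10 that did not pass (limma, Benjamini-Hochberg adjusted p = 0.845). The other 3 were higher on both treated arrays than on both untreated arrays. Probe set 1419593_at went from 4.06 and 3.80 to 4.68 and 4.71 (0.76 ± 0.11, adjusted p = 0.00632 over the 45101 probe sets). Probe set 1439568_at went from 4.12 and 3.91 to 4.71 and 4.77 (0.73 ± 0.13, adjusted p = 0.024), and 1445323_at from 3.76 and 3.52 to 4.22 and 4.44 (0.68 ± 0.11, adjusted p = 0.0182). With Dex alone 1419593_at read 4.51 and 4.59, and with E2 alone 4.32 and 4.48. For 1439568_at the values were 4.31 and 4.23 with Dex and 4.09 and 4.47 with E2. For 1445323_at they were 4.13 and 4.10 with Dex and 4.08 and 3.94 with E2. These probe sets were singled out after their values were seen, and all are dim, so their changes may be compressed, which was not measured. When its probe sets were averaged, Greb1 was called (adjusted p = 0.00545 over genes).

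**Figure D4:**
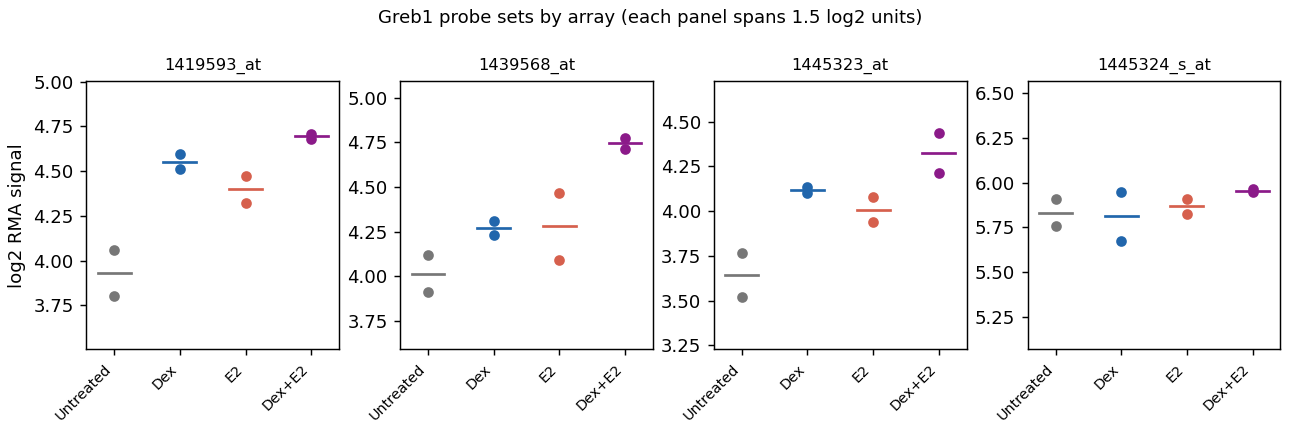
Log2 signal of the 4 Greb1 probe sets on each of the 8 arrays (points) with the group means (bars), each panel spanning 1.5 log2 units. In the 3 left panels the Dex+E2 arrays stand above the untreated arrays by a mean of 0.76, 0.73 and 0.68, and in the right panel, the brightest probe set, by 0.12.

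Among 19 hormone receptor genes 1 was called (5.26%, against 1.46% of all genes), so this share rests on 1 gene. That gene was Vdr, the vitamin D receptor. It rose from 7.997 and 8.05 to 8.62 and 8.65 (0.61 ± 0.095) and lost the call without either untreated array. Nr3c1, which encodes the glucocorticoid receptor, read 9.96 and 9.95 against 9.71 and 9.34 (-0.43 ± 0.12), lower on both treated arrays but not past the threshold (limma, Benjamini-Hochberg adjusted p = 0.171); without Dex+E2 replicate 1 it passed (0.0109) and 2 receptor genes were lower; without either E2 array 1 was. Esr1, which encodes estrogen receptor alpha, read 7.05 and 6.92 against 7.03 and 7.34, which overlap. Whether these probe sets also read the fusion transgenes was not tested. Of 15 receptor chaperones and coregulators 26.7% were called, against 1.46% of all genes. Fkbp5 and Nrip1 rose, and the metabolic coactivator genes Ppargc1a and Ppargc1b fell by -0.70 ± 0.12 and -0.61 ± 0.096. Both coactivators lost their calls without either untreated array or Dex+E2 replicate 2. For Ppargc1a the adjusted p was 0.0532 when Dex replicate 1 or 2 was dropped, and 0.082 with averaged probe sets.

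In the circadian clock list 3 of 20 members rose and 0 fell in limma's test, with 17 not past the threshold (15% called, against 1.46% of all genes), and the count of 3 was the same without any 1 of the 8 arrays. Per2, a partner of Per1, rose from 6.48 and 6.26 to 7.50 and 7.59 (1.18 ± 0.11) and Nfil3, a clock output repressor, from 9.22 and 9.45 to 10.57 and 10.22 (1.06 ± 0.13). The core activators did not pass: Clock differed by -0.10 ± 0.11 and its partner Arntl by 0.33 ± 0.11. Per3 differed by 0.08 ± 0.15 and the output gene Dbp by -0.22 ± 0.10.

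Immediate early and AP-1 genes were mostly lower where they changed. Of 22 members 7 fell, 1 rose and 14 did not pass (36.4% called, against 1.46% of all genes), and the median was -0.10. Ier3, a stress-response gene, fell by -1.28 ± 0.10 and Fosl2, a Fos-family subunit of AP-1, from 10.52 and 10.37 to 9.28 and 9.15 (-1.22 ± 0.14). Ier5, a regulator of heat shock factor, fell by -1.01 ± 0.15. The other members that fell, besides Myc, were Jun, Fosl1 and Egr2, named after their values were seen, by -0.94 ± 0.14, -0.91 ± 0.11 and -0.49 ± 0.10. Maff, a small Maf factor, rose from 7.29 and 7.46 to 8.25 and 8.41 (0.95 ± 0.14). Fos read 5.66 and 5.67 against 6.34 and 6.86, higher by 0.94 ± 0.21 without passing (adjusted p = 0.0785). Without either untreated array 3 were called lower and 0 higher in limma; the number higher was 2 without either E2 array and 3 without Dex+E2 replicate 1.

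Krüppel-like, C/EBP and ID factors split evenly: of 19 members 4 rose and 4 fell (42.1% called, against 1.46% of all genes). Cebpb and Cebpd, of the C/EBP family, rose by 1.17 ± 0.12 and 0.86 ± 0.16, and Klf9, a glucocorticoid-responsive repressor, by 1.05 ± 0.12. The ID proteins block basic helix-loop-helix factors, and members of this family moved in opposite directions. Id3 fell from 10.37 and 10.63 to 9.43 and 8.97 (-1.30 ± 0.15), while Id1 rose from 8.90 and 9.29 to 10.00 and 9.77 (0.79 ± 0.15). Klf6 and Klf7 fell by -0.91 ± 0.18 and -0.51 ± 0.091 beside Klf10. Cebpd, Id1, Klf6 and Klf7 were named after their values were seen. The 4 higher members became 2 without untreated replicate 1 or either Dex array, and the 4 lower became 2 without either untreated array or Dex+E2 replicate 2.

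Feedback regulators of MAP kinase signalling also went both ways, with 2 of 18 higher and 3 lower (27.8% called, against 1.46% of all genes). Errfi1, which blocks the EGF receptor, rose from 8.999 and 9.22 to 11.10 and 10.98 (1.93 ± 0.11), as did Dusp1. Dusp4 fell from 7.94 and 8.003 to 6.94 and 7.10 (-0.95 ± 0.087), Dusp10 by -0.60 ± 0.082 and Spry1, an inhibitor of receptor tyrosine kinase signalling, by -0.50 ± 0.098. The 3 lower became 1 without untreated replicate 2, and Dusp10 also lost its call with averaged probe sets (-0.31, adjusted p = 0.0799).

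Of 31 growth factors and receptors 5 fell, 1 rose and 25 did not pass; 19.4% were called, against 1.46% of all genes. Gdnf and Artn, neurotrophic ligands of the same family, fell from 7.93 and 7.96 to 6.16 and 6.19 (-1.77 ± 0.14) and from 7.67 and 7.82 to 6.24 and 6.13 (-1.56 ± 0.14). Hbegf and Ereg, ligands of EGF-family receptors, fell by -1.25 ± 0.12 and -1.09 ± 0.15, and the neurotrophin gene Bdnf, named after its value was seen, by -0.61 ± 0.10. Pgf, placental growth factor, rose by 0.55 ± 0.091, and lost its call without either untreated array or Dex+E2 replicate 2; without Dex+E2 replicate 1, 2 members were higher. The 5 lower became 3 without untreated replicate 2, and Ereg lost its call without either untreated array (adjusted p = 0.0616 and 0.0582).

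Of 35 inflammatory genes 8 fell, 1 rose and 26 did not pass; 25.7% were called, against 1.46% of all genes. Ptx3, a secreted pattern recognition molecule, fell from 9.42 and 9.42 to 8.01 and 7.29 (-1.77 ± 0.20), and Plau, the urokinase-type plasminogen activator, from 5.99 and 6.09 to 4.47 and 4.77 (-1.42 ± 0.15). Csf1, a macrophage growth factor, fell from 10.99 and 11.04 to 9.99 and 10.06 (-0.996 ± 0.11). Beyond these and Cxcl3, the chemokine gene Cxcl5, the prostaglandin synthase gene Ptgs2, the transcription factor gene Irf1 and the NF-kappaB inhibitor gene Nfkbie, all named after their values were seen, fell by -0.43 to -0.93. The member that rose was Nfkbia, the main inhibitor of NF-kappaB, from 11.27 and 11.02 to 12.63 and 12.90 (1.62 ± 0.14). Il6 and Ccl2, both cytokine genes, differed by -0.10 ± 0.08 and -0.24 ± 0.09 without passing. The number higher was 3 without Dex+E2 replicate 1. The 8 lower became 3 and 4 without untreated replicates 1 and 2, and 5 without either Dex array or Dex+E2 replicate 2.

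Regulators of mRNA decay and cytokine signalling had 4 of 15 members higher and 1 lower (33.3% called, against 1.46% of all genes). The tristetraprolin family was divided. Zfp36 and Zfp36l2 rose, while Zfp36l1, of the same family, fell from 10.72 and 10.70 to 9.25 and 9.06 (-1.55 ± 0.11; limma, Benjamini-Hochberg adjusted p = 6.8e-05). All 3 calls held in each of the 16 other settings. Socs2, a suppressor of cytokine signalling, rose by 0.72 ± 0.13, whereas Socs3 read 9.79 and 9.89 against 9.52 and 10.25, which overlap.

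Targets of TGF-beta, SRF and YAP signalling had 7 of 25 members lower, 2 higher and 16 not past the threshold. The share called was 36%, against 1.46% of all genes. After Ankrd1 the largest falls were in Tgif1, a TGF-beta corepressor, from 8.56 and 8.91 to 7.52 and 7.22 (-1.36 ± 0.14), and Ajuba, a LIM protein of the Hippo pathway, from 10.61 and 10.52 to 9.38 and 9.08 (-1.34 ± 0.13). Thbs1, a matrix glycoprotein that activates latent TGF-beta, fell by -1.21 ± 0.12. The inhibitory Smad genes Smad6 and Smad7 and the activin subunit gene Inhba, named with Thbs1 after their values were seen, fell by -0.92 ± 0.13, -0.60 ± 0.091 and -0.51 ± 0.088. Ccn2 and F3, tissue factor, rose; F3 went from 5.50 and 5.74 to 7.94 and 7.28 (1.99 ± 0.23). The 7 lower became 4 without untreated replicate 2.

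Metabolic and lipid genes had 6 of 34 members higher and 3 lower (26.5% called, against 1.46% of all genes), with a median of 0.00. Beside Suox, Pdk4 and Fabp4, the arrestin-domain gene Arrdc2 rose from 5.81 and 5.74 to 8.18 and 7.83 (2.23 ± 0.19) and the lipid droplet gene Plin4 from 7.76 and 7.74 to 9.44 and 9.53 (1.74 ± 0.10). The insulin receptor substrate genes moved apart, and both are named after their values were seen: Irs2 rose by 0.43 ± 0.079 and Irs1 fell from 11.01 and 10.89 to 9.85 and 9.68 (-1.18 ± 0.12). Angptl4 and the lipid phosphatase gene Lpin1 were the other members that fell, Lpin1 by -0.58 ± 0.11. The 3 lower became 1 without any 1 array of the untreated or Dex groups.

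Of the cell cycle, survival and stress genes 6.25%, 11.5% and 20% were called, against 1.46% of all genes. Cdkn1a rose and Cdkn1b, which encodes p27, fell by -0.42 ± 0.082 among 32 cell cycle genes, and Cdkn1b lost its call without either untreated array, either Dex array or Dex+E2 replicate 2, and with averaged probe sets (adjusted p = 0.0687). Of 26 apoptosis and survival genes, Bcl2l1, which encodes Bcl-xL, rose from 8.53 and 8.61 to 10.06 and 9.75 (1.34 ± 0.11), Pim3, a survival kinase, rose by 1.25 ± 0.12, and Phlda1 fell. Of 25 stress genes, Herpud1, of endoplasmic reticulum degradation, and Gadd45b, a stress sensor, rose by 1.00 ± 0.11 and 0.85 ± 0.13, while Plk2, a polo-like kinase, fell from 10.94 and 10.88 to 9.43 and 8.87 (-1.76 ± 0.20), a call lost with averaged probe sets (-0.74, adjusted p = 0.0791). Chac1 and Ddit3 belong to the integrated stress response and fell by -0.53 ± 0.092 and -0.49 ± 0.10. The 3 lower became 1 without untreated replicate 2, either Dex array or Dex+E2 replicate 2, and the 2 higher became 1 without untreated replicate 1 and 4 without Dex+E2 replicate 2.

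Marker lists held 3 called genes, and of all genes 1.46% were called. Of 18 mesenchymal markers (11.1% called), Snai2 and Twist1, transcription factors of mesenchymal cells, fell: Snai2 from 9.85 and 9.86 to 8.73 and 8.82 (-1.08 ± 0.11) and Twist1 from 8.69 and 8.77 to 8.33 and 8.18 (-0.47 ± 0.086). Twist1 lost its call without either untreated array, either Dex array or Dex+E2 replicate 2. Snai1 and Zeb1, of the same program, differed by -0.21 ± 0.10 and -0.15 ± 0.09 without passing. Of 12 endothelial and adipose markers Fabp4 rose, while Adipoq, which encodes adiponectin, read 3.50 and 3.65 against 3.61 and 3.56. Of 20 epithelial, 16 milk and luminal and 15 immune cell markers, 0 passed in limma.

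The choice of probe set set the size of some changes. With averaged probe sets 17 of the named genes called against untreated moved by more than 1.5 times, all towards 0. Among those that kept their call, Tsc22d3 rose by 1.25, Il6ra by 1.24, Fabp4 by 0.93, Bcl2l1 by 0.69, Fkbp5 by 0.67, Klf9 by 0.64, Per2 by 0.53 and Zfp36l2 by 0.52, and Ptx3 differed by -0.88, Ahr by -0.83, Plau by -0.68 and Fosl2 by -0.64. With only the arrays of the 2 groups in the fit, Fabp4, Cdkn1b, Twist1, Chac1, Ppargc1a and Myc were not called (limma, Benjamini-Hochberg adjusted p = 0.0525 to 0.145).

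Compared with Dex alone, the joint treatment called 2 genes (0.011%), and both were higher with both hormones. In limma's test 469 genes were higher and 380 lower at p under 0.05 before adjustment. Tmem86a, which encodes an enzyme of ether lipid turnover, read 7.39 and 7.56 with Dex and 8.89 and 9.50 with both, a difference of 1.72 ± 0.18 (limma, Benjamini-Hochberg adjusted p = 0.0184). Zfp52, a zinc finger gene, read 7.72 and 7.75 with Dex and 8.93 and 8.96 with both, a difference of 1.21 ± 0.13 with the same adjusted p. Neither pair of groups overlapped, but how many of all genes met that condition against Dex was not counted. Untreated cells were at 7.95 and 7.95 for Tmem86a and 7.37 and 7.52 for Zfp52, and E2 alone gave 9.49 and 9.83, and 9.11 and 9.54. The number called was 0 without any 1 array of the untreated or Dex groups, where the adjusted p of both genes was 0.1005 without an untreated array and 0.533 and 0.414 without Dex replicates 1 and 2. It was 4 without either E2 array, 1 without Dex+E2 replicate 2 and 81 without Dex+E2 replicate 1.

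Among the genes nearest the threshold in that comparison were Celsr1, a cadherin of planar cell polarity, higher than with Dex by 1.21 ± 0.15 (adjusted p = 0.0619), Klhl21, a ubiquitin ligase adaptor, higher by 0.83 ± 0.11 (0.0635), and Klf3, a Krüppel-like repressor, higher by 0.71 ± 0.093 (0.0635). In the other direction, Orm3, of the orosomucoid acute-phase family, read 6.74 and 6.67 with Dex and 6.12 and 6.13 with both (-0.58 ± 0.081; adjusted p = 0.0754). Id3 lay below its Dex level by -0.88 ± 0.15 (0.186) and Lcn2 by -0.89 ± 0.17 (0.273). None of these passed. For the leading genes the interval of the difference is the fuller statement. The 95% interval of Dex+E2 minus Dex, before adjustment for the number of genes, was -0.06 to 0.40 for Spsb1, -0.52 to 0.07 for Sphk1, -0.53 to 0.04 for Per1, -1.37 to -0.38 for Rgs2, -0.57 to -0.08 for Fkbp5 and -0.57 to 0.12 for Klf10. The median half-width of that interval was 0.214 log2 units over all genes.

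**Figure D5:**
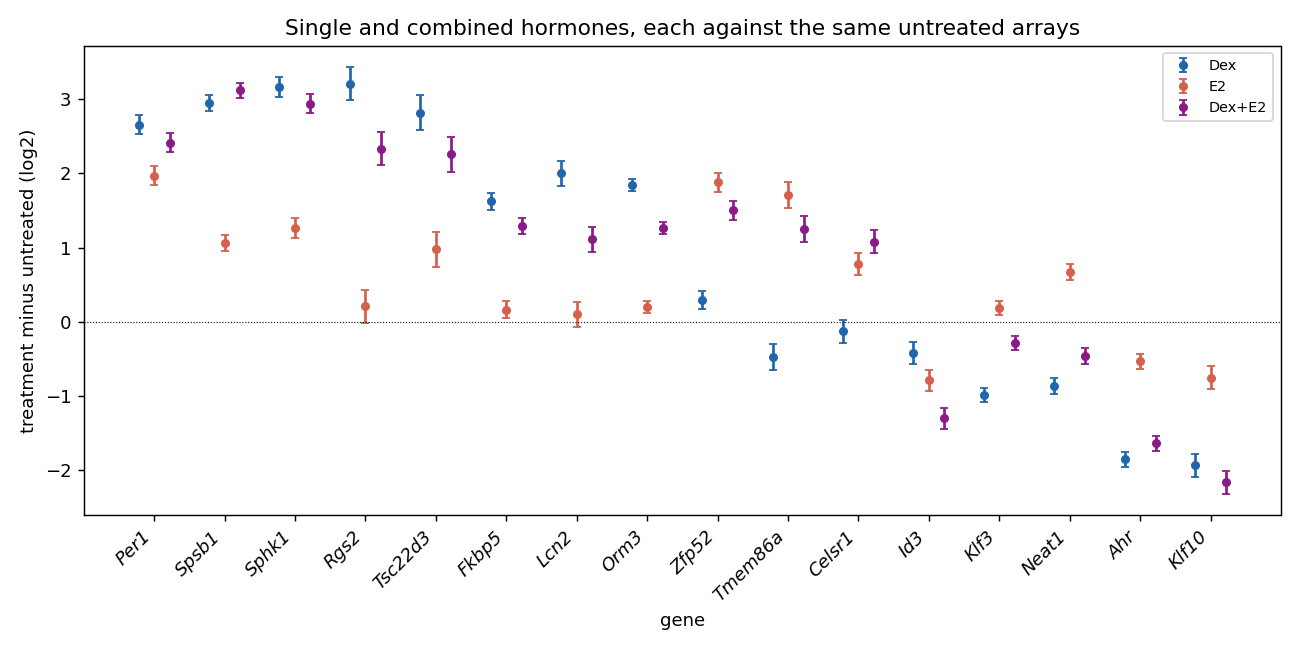
Log2 difference from the same 2 untreated arrays for 16 genes after Dex (blue), E2 (red) and both (purple), with the standard error as bars. Per1 stands at 2.66, 1.97 and 2.41, Tmem86a at -0.47, 1.71 and 1.25, and Ahr at -1.85, -0.53 and -1.63.

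Compared with E2 alone, the joint treatment called 114 genes (0.627%), 64 higher and 50 lower, of which 23 and 10 differed at least 2-fold. Rgs2 read 6.22 and 6.96 with E2 against 8.89 and 8.54 with both, a difference of 2.12 ± 0.22, and Spsb1 read 7.82 and 8.08 against 9.94 and 10.07 (2.05 ± 0.10). Dusp1, Sphk1 and Suox were higher than with E2 by 1.99 ± 0.14, 1.67 ± 0.13 and 1.61 ± 0.14, and Adm, the vasodilator peptide adrenomedullin, by 1.55 ± 0.19. Klf10 was lower by -1.40 ± 0.15 and Ankrd1 by -1.28 ± 0.15. With only the arrays of these 2 groups Adm, Klf10 and Ankrd1 were not called (limma, Benjamini-Hochberg adjusted p = 0.0838, 0.0718 and 0.0728). Neat1, the paraspeckle long noncoding RNA, read 9.07 and 9.14 with E2 and 8.13 and 7.80 with both (-1.14 ± 0.11). Its untreated arrays, 8.38 and 8.49, lay between these, and Dex alone gave 7.54 and 7.60. Per1 and Per2 were not called against E2, with differences of 0.44 ± 0.13 (adjusted p = 0.224) and 0.03 ± 0.11 (0.949). The count of 114 was 65 without any 1 array of the untreated or Dex groups, 31 and 62 without E2 replicates 1 and 2, and 858 without Dex+E2 replicate 1. Of the 42 genes of the naming rule called against E2, 15 were called in every other setting that tested them (16, or 15 for Orm3 and Plau), among them Rgs2, Spsb1, Dusp1, Sphk1, Suox and Neat1.

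The interaction, which is the Dex effect in the presence of E2 minus the Dex effect without it, called 1 gene (0.0055%), while 523 genes were higher and 482 lower at p under 0.05 in limma before adjustment. That gene was Per1. It read 6.72 and 6.45 untreated, 9.32 and 9.17 with Dex, 8.62 and 8.50 with E2, and 9.16 and 8.84 with both. The joint rise of 2.41 was thus within the range of the single rises of 2.66 ± 0.13 and 1.97 ± 0.13, and below their sum by 2.21 ± 0.18 (interaction -2.21; limma, Benjamini-Hochberg adjusted p = 0.00348). Without Dex replicate 1 the interaction of Per1 did not pass (adjusted p = 0.063). The count was 2 without E2 replicate 1 and 20 without Dex+E2 replicate 1. Sphk1 (-1.49 ± 0.19; adjusted p = 0.0916), Foxred2, an endoplasmic reticulum oxidoreductase (-1.48 ± 0.21; 0.17), Orm3 (-0.78 ± 0.11; 0.17) and Errfi1 (-1.003 ± 0.15; 0.17) had the next smallest p-values below 0 and did not pass. Above 0, Ahr was at 0.75 ± 0.14 (0.462), also not past the threshold.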

How the data were processed

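RNA of 7438 cells was measured on 8 Affymetrix mouse arrays, 2 in each of 4 groups. The deposited table holds log2 values of 45101 probe sets, made by the authors in Affymetrix Expression Console by the RMA method (robust multi-array averaging), per the submitters' processing notes, with no version given. RMA equalises the distributions of the arrays (medians 5.58 to 5.67), so a shift of most genes in 1 direction would not be seen, and compresses changes of dim probe sets. Gene symbols came from the platform's annotation: 34958 probe sets have 1 symbol, 932 several and 9211 are not listed, and the last 2 kinds were left out of gene tests. Each gene took the values of its brightest probe set by mean signal (18194 genes, 9012 with more than 1 probe set).

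Limma 3.58.1 in R 4.3.3 fitted 4 group means on all 8 arrays, with 4 residual and 6.2 prior degrees of freedom, and two-sided p-values were adjusted by the Benjamini-Hochberg method. The contrasts were Dex+E2 against untreated, Dex and E2, and the interaction. Dex and E2 against untreated share the untreated arrays with the joint comparison and are given as differences only. Precision is limited by the number of arrays, with a median standard error of 0.0964 per difference. The script was tested on simulated data.

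The 21 gene lists (472 genes, 447 measured) and the genes named were chosen with earlier results of these data known. Genes named are the 20 largest rises and falls past the threshold without overlap of the arrays, predicted and clone names left out, the 4 largest called in each list, the 8 largest each way in the other comparisons (or the 5 smallest p-values each way where under 10 passed), and always Esr1, Fkbp5, Greb1, Lcn2, Nr3c1, Per1, Pgr, Sgk1 and Tsc22d3. Every other gene given, list members that did not pass included, was named after its values were seen. Alternatives were the arrays of the compared groups alone, a trended and robust prior, averaged probe sets, every probe set, genes at or above the median level, centred arrays, the replicate number as a block, and each array left out. List genes that no single-symbol probe set names are not analysed here.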

Additional observations from a re-analysis of the deposited data

Results flagged for a closer look

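The effect of Dex on Per1 differed with and without E2, by a test of the difference itself. The interaction, with E2 present minus E2 absent, was -2.21 ± 0.18 log2 units (limma, Benjamini-Hochberg adjusted p = 0.00348 over 18194 genes). Per1 was higher with Dex by 2.66 without E2, and by 0.44 with E2 present. The difference of 0.44 was not called (limma, Benjamini-Hochberg adjusted p = 0.224). Without Dex replicate 1 the interaction did not pass. Per1 is represented by 1 probe set on this array.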

How the results depend on the processing

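Of the 73 named genes called against untreated, 0 changed direction in the 16 other settings, 52 were called in every setting that tested them and 21 lost the call in at least 1; genes below the median level were not tested in the setting limited to brighter genes. The count of 265 was 171 with the arrays of the 2 groups alone (63 lower genes in place of 119). Leaving out 1 array in turn, the counts ran from 114 to 608 in total, from 71 to 279 higher and from 42 to 329 lower; a group left with 1 array is assumed to vary like the others. The lowest values came without an untreated array and the highest without Dex+E2 replicate 1, and 231 of the 608 genes were among the 265. With every probe set tested on its own, 379 were called. Against Dex, where 2 genes were called, the count was 1 with 2 groups alone, 9 with a trended and robust prior, 4 with genes at or above the median level, 4 with centred arrays, and 0 to 81 when arrays were left out. Against E2 (114) it was 23 with 2 groups alone and 31 to 858 when arrays were left out. For the interaction (1) it was 4 with the trended prior and 0 to 20 when arrays were left out. The causes of these shifts were not tested. Fits on 2 groups use 4 arrays, so they have fewer degrees of freedom and take the spread from those groups alone.

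The labels give each group replicates 1 and 2. Same-numbered arrays deviated together for untreated and Dex (r = 0.19 over genes), untreated and E2 (0.35) and Dex and E2 (0.27), but not for Dex+E2 with untreated (-0.26), Dex (-0.07) or E2 (-0.16), so the numbers were not taken to pair the samples. With the number as a replicate block 251 genes were called against untreated, 3 against Dex, 82 against E2 and 1 in the interaction. With the Dex+E2 numbers crossed, an alternative chosen after seeing the data, the counts were 349, 10, 310 and 2. Signal over background limits what dim probe sets can show: 35 of the 265 called genes lay below the median level. For 30 of the 159 called genes with more than 1 probe set, another probe set had a difference of the opposite sign. That count uses the sign alone, whether or not the other probe set passed, and so includes probe sets that hardly differed.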

Other observations

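Of the called genes, 102 of 146 higher and 71 of 119 lower were in none of the gene lists; those described here were chosen after their values were seen. They follow no list and no enrichment was tested. Ptch1, the receptor of Hedgehog ligands, read 9.09 and 9.09 in untreated cells and 8.36 and 8.04 with both (-0.89 ± 0.12), and Hes1, a target of Notch signalling, 7.13 and 7.26 against 6.67 and 6.57 (-0.58 ± 0.088). In the Wnt pathway the ligand gene Wnt9a fell from 6.45 and 6.45 to 5.62 and 5.70 (-0.79 ± 0.079), and the receptor gene Fzd7 from 8.06 and 8.11 to 7.55 and 7.35 (-0.64 ± 0.091). Of the Iroquois homeobox genes, Irx1, Irx2 and Irx5 fell by -0.39 ± 0.078, -0.38 ± 0.078 and -0.43 ± 0.082. Irx3, Irx4 and Irx6 differed by -0.13 ± 0.08, -0.02 ± 0.13 and 0.20 ± 0.09 without passing. Other regulators of development were higher: Sox4, Tead4, Sox9 and Runx3 rose by 0.93 ± 0.13, 0.86 ± 0.12, 0.78 ± 0.12 and 0.73 ± 0.10.

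Some small families moved together or apart. Sertad1, Sertad2 and Sertad3, transcriptional cofactors of the cell cycle, fell by -0.48 ± 0.097, -0.46 ± 0.078 and -0.51 ± 0.084, and Sertad4 differed by -0.36 ± 0.15 without passing. Tsc22d2, a relative of the strongly raised Tsc22d3, fell from 10.52 and 10.28 to 9.19 and 9.23 (-1.19 ± 0.10), and Tsc22d1 and Tsc22d4 differed by 0.22 ± 0.10 and 0.03 ± 0.08 without passing. Among higher genes, the small GTPase gene Rhob rose from 9.97 and 9.82 to 11.08 and 10.91 (1.11 ± 0.11), the follistatin-like activin antagonist gene Fstl3 from 8.08 and 8.17 to 9.05 and 9.15 (0.98 ± 0.086), and the forkhead factor gene Foxo3 from 8.68 and 8.64 to 9.68 and 9.54 (0.95 ± 0.10).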
